A study of Schmidtea mediterranea with 9 samples.

Results

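The 200 transcripts described here were the most abundant testis-restricted transcripts of the sexual planarian *Schmidtea mediterranea*, a hermaphroditic flatworm. They were chosen from 36036 transcripts of a de novo transcriptome by their deposited CPM (counts divided by an effective library size, which differed from the library total by tissue), averaged over the 3 libraries of each tissue. A transcript had to have at least 32 times the CPM in testis that it had in ovary, and at least 32 times the CPM that it had in non-gonadal tissue. With a testis count required, 2598 transcripts met both limits, 11 of these were left out by name, and the 200 with the highest testis CPM were taken from the other 2587. The 11 left out include the testis transcripts sped-1, C3H-zfn-1, elav2 and bic-c. Because measured values chose the 200, their height in testis and their low level elsewhere are given below as a description, with no test.

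The study used laser-capture microdissection, in which stained tissue is cut out of a section under the microscope, to separate ovary, testis and the surrounding non-gonadal tissue before RNA-seq. All 3 groups were wild-type animals of the sexual strain, and the labels give no treatment before collection. The worms were killed in chilled hydrochloric acid, fixed in acetone, cryosectioned at 16 µm and stained with cresyl violet and eosin Y. Each of the 3 ovary libraries pooled tissue of 14 worms (10 cut in cross section and 4 sagittally), and each of the 3 testis and 3 non-gonadal libraries pooled tissue of 6 worms (4 and 2). The labels do not say whether the libraries of different tissues came from the same worms, and p-values measure the spread between these pooled libraries.

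Planarian testes are numerous small lobules in which spermatogonia at the periphery give rise to spermatocytes, spermatids and sperm towards the lumen. In animals generally, spermatogenesis uses many genes at high levels that other tissues use little or not at all, including genes of meiosis, of chromatin packaging and of the sperm flagellum. A captured testis holds all of these stages together with somatic gonadal cells, so the values average over them, and more cells of a stage cannot be told apart from more RNA per cell. The transcript IDs of the 200 are not paired with gene names in the tables used here, so no function is assigned to any of them, and sequences were not analysed here.

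Libraries held 18611584 to 25730833 counts. The marker transcripts followed the tissue labels: sped-1 had 169749 to 182736 counts in the testis libraries against 353 to 1420 in the 6 others, while zfs1, an ovary marker, had 1 count in the 3 testis libraries together and 1212 to 1401 in each ovary library. The ovary marker lecg averaged 2917 TPM (a measure that corrects for transcript length) in ovary and 98.8 TPM in testis. The neural marker tph1, which encodes a tryptophan hydroxylase of serotonin synthesis, averaged 2.64 TPM in non-gonadal tissue, 1.91 TPM in ovary and 0.0825 TPM in testis. The early germ cell marker nanos averaged 66.2 TPM in ovary, 30.0 TPM in testis and 11.4 TPM in non-gonadal tissue. Of all transcripts, 18416 passed the filter on low values (at least 1 CPM in at least 3 libraries) and were tested. All 200 passed it, through their testis libraries.

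The 200 transcripts held a large share of the testis transcriptome. They took 25.6%, 27.6% and 24.98% of all counts in testis replicates 1, 2 and 3. In ovary they held 0.285%, 0.173% and 0.260% of counts, and in non-gonadal tissue 0.156%, 0.0913% and 0.0851%. Corrected for transcript length, the testis shares were 30.4%, 33.4% and 29.4% of TPM. The shares in the testis libraries lay far above those of the other 6, as the choice of the transcripts fixed.

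Mean testis CPM ran from 627 to 16219 within the group, a range of 25.8-fold, with a median of 992 and quartiles of 730 and 1532. The distribution was uneven. The 10 most abundant transcripts held 29.1% of the summed testis CPM of the group, the first 27 reached a share of 50%, and the first 50 held 63.4%. On the TPM scale the group ran from 86.6 to 25592 with a median of 577. Of the 10 transcripts of the group highest in TPM, 7 were also among its 10 highest in CPM.

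**Figure D1:**
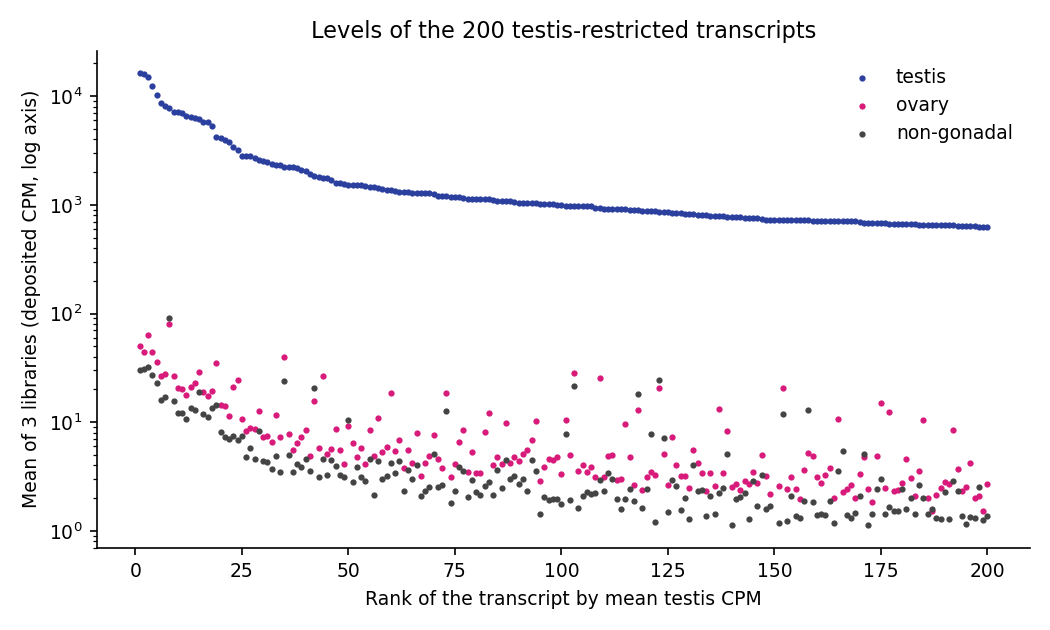
Mean deposited CPM over 3 libraries (log axis) of the 200 transcripts in testis, ovary and non-gonadal tissue, ordered by rank in testis; SMED30023267, with no count outside the testis, has no ovary or non-gonadal point. Testis levels fall from 16219 to 627 CPM, and ovary and non-gonadal points lie 34.3-fold or more below the testis point of the same transcript.

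Among all transcripts, those of the group were a large part of the abundant ones. Of the 286 transcripts with a mean testis CPM at or above that of the last one taken, 200 (69.9%) belonged to it. Of the other 86, 4 were left out by name and 82 were closer than 32-fold to another tissue. All 82 failed the limit against ovary, and 76 of them also failed the limit against non-gonadal tissue. The group took 6 of the 10 and 76 of the 100 highest transcripts of the testis by CPM, and 99 of the 200 highest by TPM.

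SMED30006104, of 430 bases, was the most abundant. It had 249821, 295562 and 271005 counts in testis, 1748, 1064 and 1660 in ovary, and 919, 506 and 428 in non-gonadal tissue. The testis level was 16219 ± 1831 CPM (SD, n = 3), and its ovary and non-gonadal levels were 0.309% and 0.185% of that. The testis counts were far above all others. In deposited CPM, ovary and non-gonadal tissue overlapped, since ovary replicate 2 (30.5 CPM) was below non-gonadal replicate 1 (46.9 CPM). In TPM they did not overlap, with 107 in ovary replicate 2 and 103 in non-gonadal replicate 1.

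SMED30006063 (517 bases) followed at 16125 ± 503 CPM (SD, n = 3), with 273221, 251050 and 289978 counts in testis. Counts were 1794, 811 and 1320 in ovary and 971, 500 and 417 in non-gonadal tissue. Here too ovary replicate 2 lay below non-gonadal replicate 1, so the groups outside the testis overlapped. SMED30017110 (570 bases) was next at 15035 ± 1991 CPM (SD, n = 3), with 2408, 1429 and 1797 counts in ovary and 983, 521 and 461 in non-gonadal tissue. In deposited CPM, its groups outside the testis overlapped as well. Ovary replicate 2 (41.0 CPM) was below non-gonadal replicate 1 (50.1 CPM). In TPM these groups did not overlap, with 108 in ovary replicate 2 and 82.8 in non-gonadal replicate 1.

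The others of the 10 most abundant were SMED30016657 (12460 CPM), SMED30015569 (10265 CPM), SMED30017461 (8575 CPM), SMED30015920 (8091 CPM), SMED30021452 (7754 CPM), SMED30008412 (7219 CPM) and SMED30004890 (7192 CPM). Of the 10, SMED30021452 stood apart. It was the longest at 2519 bases, and it had 2442, 2634 and 2301 counts in ovary and 1986, 1968 and 1781 in non-gonadal tissue, beside 122603, 135955 and 132049 in testis. Its level was 1.04% of the testis level in ovary and 1.18% in non-gonadal tissue. Across all 10, these percentages ran from 0.274% to 1.04% in ovary and from 0.169% to 1.18% in non-gonadal tissue.

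Lengths were recovered from the deposited counts and RPKM. The 200 transcripts had a median length of 1165 bases, with quartiles of 741 and 1796 and a range of 366 to 7534. The median was 1360 bases over all tested transcripts, 860 over the 86 other transcripts at least as abundant in testis, and 1130 over the other 1840 tested transcripts that met both ratio limits. CPM does not correct for length, so a long transcript reaches a given CPM with fewer copies. SMED30011028 (7534 bases) had 1017 CPM but 91.2 TPM in testis, whereas SMED30029762 (366 bases) had 1814 CPM and 3353 TPM. The 50 transcripts with the highest CPM had a median length of 849 bases, and the following sets of 50 had medians of 987.5, 1632 and 1229.5 bases.

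Outside the testis the transcripts were low but, apart from 1, not absent, and most sat at a similar percentage of their own testis level. That percentage, called the residual level below, had a median of 0.383% in ovary, with quartiles of 0.323% and 0.535%. In non-gonadal tissue the median was 0.221% with quartiles of 0.191% and 0.303%. These values are on the deposited CPM scale and depend on it: the ovary median was 0.757% in CPM from library totals and 0.799% in TPM, and the non-gonadal median 0.330% and 0.304%. The rule limited both percentages from above. In ovary, 151 of the 200 lay within 1.5-fold of the median, 44 lay above that window and 5 below it. In non-gonadal tissue 159 lay within 1.5-fold of the median, 37 above and 4 below, and 137 lay within the window in both tissues.

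In sets of 50 from the highest to the lowest in testis, the median in ovary was 0.346%, 0.420%, 0.402% and 0.403%, and in non-gonadal tissue it was 0.205%, 0.228%, 0.255% and 0.223%. The 1840 other tested transcripts that met both limits had medians of 0.538% in ovary and 0.304% in non-gonadal tissue. The 11 transcripts left out by name had a median of 0.456% in ovary (range 0.379% to 1.44%) and of 0.512% in non-gonadal tissue (range 0.141% to 1.54%), so their non-gonadal median was above that of the 200. Of these, sped-1, C3H-zfn-1 and elav2 had residual levels of 0.379%, 0.407% and 0.465% in ovary, and of 0.225%, 0.243% and 0.252% in non-gonadal tissue. The less abundant bic-c had 1.44% and 0.920%. How much of these counts came from RNA made in the captured tissue was not tested.

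The median of pooled counts over the 3 libraries was 431 per transcript in ovary and 162.5 in non-gonadal tissue, for which counting alone gives a coefficient of variation (CV) of 4.82% and 7.81%.

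The residual level moved with the library. Its median was 0.338%, 0.172% and 0.166% in non-gonadal replicates 1, 2 and 3, and 0.461%, 0.260% and 0.433% in ovary replicates 1, 2 and 3. Non-gonadal replicate 1 was the highest non-gonadal library for 191 of the 200 transcripts, and for 194 when CPM was computed from library totals. Ovary replicate 2 was the lowest ovary library for 188. The lowest ovary median was thus below the highest non-gonadal median.

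**Figure D2:**
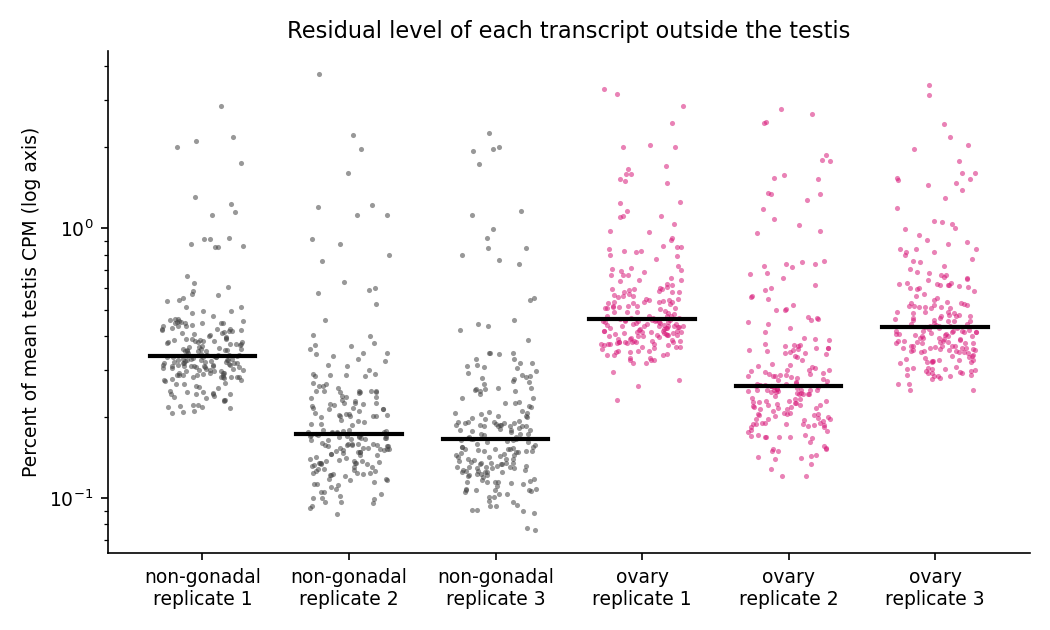
Residual level (percent of the mean testis CPM, log axis) of the 200 transcripts in each of the 6 libraries outside the testis; each point is a transcript, horizontal jitter carries no value, and black bars are medians. The bars stand at 0.338%, 0.172% and 0.166% in the non-gonadal libraries and at 0.461%, 0.260% and 0.433% in the ovary libraries, and the transcript with no count is not drawn.

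This shift was seen in the transcripts near the median and was smaller in those with a high residual level. For the 159 transcripts near the non-gonadal median, the CPM of non-gonadal replicate 1 was 2.09 times the mean of the other 2 non-gonadal libraries (median over transcripts). For the 9 transcripts with a non-gonadal residual level above 1% it was 1.11 times, with a range of 0.972 to 1.20. The same ratio was 1.53 for the 11 transcripts left out by name, 10 of which were highest in non-gonadal replicate 1, and 0.983 for all tested transcripts. For ovary replicate 2 against the mean of the other 2 ovary libraries, the ratio was 0.559 for the 151 transcripts near the ovary median and 0.923 for the 21 above 1%. It was 0.613 for the transcripts left out by name, of which 8 of 11 were lowest in this library, and 1.05 for all tested transcripts. No cause of these library differences was tested.

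The order of the transcripts by residual level was similar between libraries. Spearman's rho over the 200 transcripts was 0.704 to 0.785 between non-gonadal libraries, 0.812 to 0.864 between ovary libraries and 0.585 to 0.738 between an ovary and a non-gonadal library. These coefficients are descriptive, since all residual levels share the testis means as denominator and transcripts are not independent replicates.

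SMED30023267 was the exception at the low end, and it was singled out after its values were seen. It had 10882, 14128 and 11712 counts in testis (731 CPM and 290 TPM, 1708 bases) and 0 counts in each of the 6 other libraries. Of the 2920 transcripts with at least 100 CPM in testis, it was the only one with no count in all 6. With a floor of 3 counts over each group, its testis CPM was at least 22367-fold higher than in ovary and at least 15259-fold higher than in non-gonadal tissue. The floor covers counting error only. The transcript of the group with the next lowest total had 214 counts in the 6 libraries.

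At the high end, 21 transcripts had an ovary residual level above 1%, 9 a non-gonadal residual level above 1%, and 7 both. SMED30003974 had the highest residual level in ovary, 2.91%, and 2.22% in non-gonadal tissue. Counts were 794, 941 and 874 in ovary, 418, 493 and 451 in non-gonadal tissue and 16329, 16876 and 16066 in testis. In CPM these were 27.9, 27.0 and 30.6 in ovary and 21.3, 21.8 and 22.1 in non-gonadal tissue, so non-gonadal replicate 1 was not the highest and ovary replicate 2 was close to replicate 1.

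SMED30004736 had the highest residual level in non-gonadal tissue, 2.85%, and 2.39% in ovary. Its counts were 479, 728 and 346 in non-gonadal tissue and 600, 796 and 501 in ovary, so the groups overlapped. SMED30023470 (424 bases) had 2.81% in ovary and 1.64% in non-gonadal tissue, with 654, 475 and 711 counts in ovary and 250, 202 and 288 in non-gonadal tissue. In deposited CPM its groups overlapped, since ovary replicate 2 (13.6 CPM) was below non-gonadal replicate 3 (14.1 CPM). In TPM they did not overlap, with 48.5 in ovary replicate 2 and 30.6 in non-gonadal replicate 3. SMED30014320 had more CPM in non-gonadal tissue, 2.03% of its testis level against 1.46% in ovary, from 367, 397 and 366 counts in non-gonadal tissue and 381, 416 and 386 in ovary. This order depended on the measure, since its mean TPM was 10.3 in ovary and 9.38 in non-gonadal tissue.

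The limits of the rule cut through a continuous range. The last 3 transcripts inside the rank limit were SMED30001155 at 631 CPM, SMED30003146 at 630 CPM and SMED30006920 at 627.4 CPM in testis, and the first 3 outside were SMED30010552 at 627.1 CPM, SMED30020494 at 624 CPM and SMED30020230 at 620 CPM. Nearest the ratio limit, the smaller of the testis to ovary and testis to non-gonadal ratios was 34.3 for SMED30003974, 35.0 for SMED30004736 and 35.5 for SMED30023470. Just outside, at a high enough testis level, it was 31.8 for SMED30023369, 29.2 for SMED30013384 and 25.2 for SMED30018057.

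The choice depended on the measure of level. Ranked by TPM in place of deposited CPM, with the same ratio limits, 137 of the 200 (68.5%) were taken. CPM from library totals kept 191, a ratio limit of 16 kept 195, one of 64 kept 189, and leaving out any 1 library kept 194 to 200.

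In the fit across all transcripts (edgeR's quasi-likelihood test, called at an adjusted p of at most 0.01 and a change of at least 2-fold), all 200 passed the call for testis over non-gonadal tissue and for testis over ovary. Over all tested transcripts these calls took 33.4% and 30.4%. The rule used both contrasts, so nothing is read from these counts. The median log2 fold change of the 200 was 8.80 over non-gonadal tissue and 8.02 over ovary, and the smallest was 5.10 in both.

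The rule did not use the contrast of ovary with non-gonadal tissue directly, although it capped both tissues relative to testis. In this contrast 39 of the 200 transcripts (19.5%) were called higher in ovary, against 18.3% of all tested transcripts, and 3 (1.5%) were called lower, against 18.8%. The share called higher was near the background in this fit. It was above the background without non-gonadal replicate 1 (56.0% against 19.0% of all), without ovary replicate 2 (38.5% against 18.8%) or under library size alone (61.0% against 28.8%). With no filter on low values it was 20.0%, against 11.3% of the 33747 transcripts then tested. A further 158 were not called, of which 76 had an unadjusted p under 0.05, and 14 had an adjusted p of at most 0.01 with a change under 2-fold.

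In most of the transcripts the ovary mean was nonetheless the higher of the 2. The ovary CPM was above the non-gonadal CPM in 187 of 200, with a median ratio of 1.69, quartiles of 1.49 and 1.99, and a range of 0.409 to 8.69. The median log2 fold change was 0.73, with quartiles of 0.56 and 0.97, against a median of 0.02 over all tested transcripts. The libraries overlapped in most: all 3 ovary libraries were above all 3 non-gonadal libraries (deposited CPM) in 53 transcripts (26.5%), against 35.4% of all tested transcripts, and below them in 6 (3.0%), against 36.4%. In CPM from library totals the ovary libraries were all above in 91 (45.5%), against 49.2% of all tested transcripts, and all below in 3, against 24.3%.

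The count of calls moved most when either of 2 libraries was left out or the scaling was changed. Without non-gonadal replicate 1, 112 of the 200 were called higher, and 37 of the 39 were among them. Without ovary replicate 2, 77 were called, with all 39 among them. When any other library was left out the count was 28 to 40 (14.0% to 20.0%), against 17.5% to 18.3% of all tested transcripts. Scaling by library size alone called 122, and moved the median log2 fold change of all tested transcripts from 0.02 to 0.44 and that of the 200 from 0.73 to 1.14. The number called lower was 3 with any library left out, except 2 without ovary replicate 2, and 0 under library size alone.

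**Figure D3:**
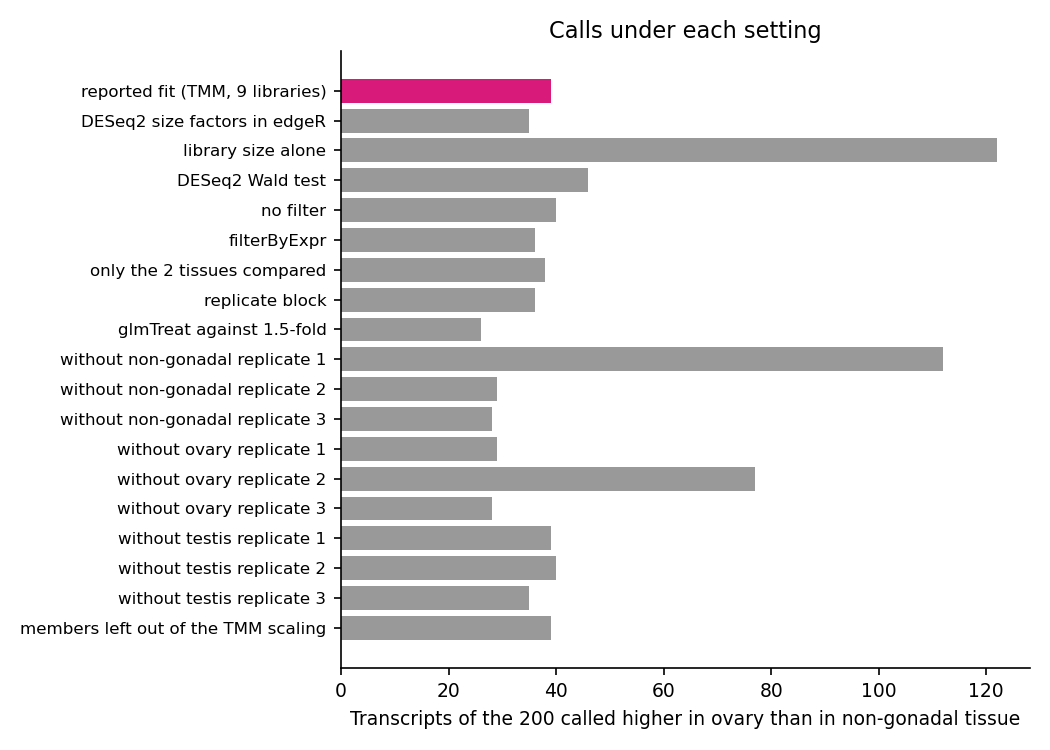
Number of the 200 transcripts called higher in ovary than non-gonadal tissue by edgeR (or DESeq2 where named) under each setting, as bars from 0. The reported fit calls 39, and library size alone (122), the fit without non-gonadal replicate 1 (112) and the fit without ovary replicate 2 (77) stand above the others.

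The 39 transcripts called higher had ovary residual levels of 0.328% to 2.73% (median 0.691%) and a non-gonadal median of 0.237%. Of these, 23 were among the 44 transcripts with an ovary residual level over 1.5 times the median, and 12 were among the 21 above 1%. In 38 of the 39 the ovary and non-gonadal libraries did not overlap. The calls were made on these same libraries, so this adds no support to them. The share without overlap among all called transcripts was not computed. Their median length was 1766 bases, and that of the transcripts not called was 1081. Calls were not counted by length over all tested transcripts, so the lengths are a description. Of the 10 most abundant transcripts none was called, and in sets of 50 from the most to the least abundant 6, 13, 8 and 12 were called.

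**Figure D4:**
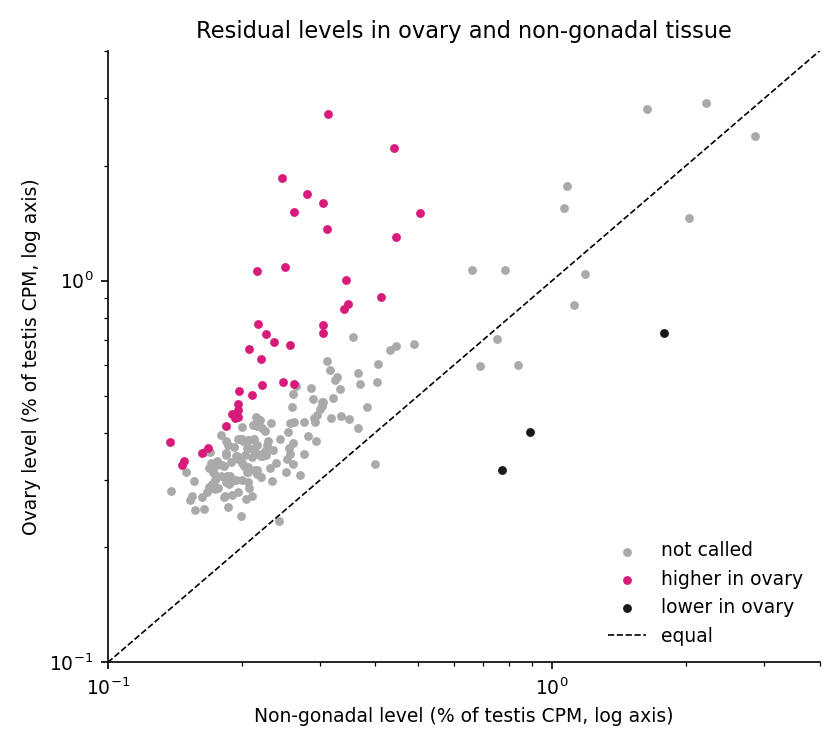
Ovary against non-gonadal residual level (percent of mean testis CPM, both axes log) of the transcripts, coloured by the edgeR call, with the line of equal levels dashed; the transcript with no count is not drawn. Most points form a cloud above the line near 0.221% and 0.383%, the called ones rise from its upper left edge, and the 3 called lower lie below the line.

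SMED30011468 (1094 bases) had the largest difference. Its counts were 873, 798 and 652 in ovary, 83, 50 and 48 in non-gonadal tissue, and 14819, 17431 and 14742 in testis, so that no library of one tissue overlapped another. Its log2 fold change of ovary over non-gonadal tissue was 3.11 (SE 0.24, edgeR adjusted p = 1.43e-07), and its ovary residual level of 2.73% stood beside a non-gonadal level of 0.314%.

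A log2 fold change of 2.90 (SE 0.21, edgeR adjusted p = 7.9e-08) was found for SMED30006925, from 385, 420 and 342 ovary counts and 44, 33 and 26 non-gonadal counts. SMED30014011, with 373, 488 and 360 ovary counts and 62, 42 and 33 non-gonadal counts, differed by 2.57 on the log2 scale. SMED30021934, at 1755 CPM in testis the most abundant of the 5 with the largest differences, differed by 2.50, from 853, 821 and 742 ovary counts and 123, 99 and 65 non-gonadal counts. In these 3 transcripts the non-gonadal counts were highest in replicate 1 and the tissues did not overlap.

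For SMED30030983, of 5141 bases, the log2 fold change was 2.37 (SE 0.16, edgeR adjusted p = 5.41e-08), from 298, 362 and 302 ovary counts and 48, 43 and 34 non-gonadal counts. SMED30002014, among the 5 highest in ovary residual level at 2.22%, differed by 2.31 on the log2 scale, from 388, 584 and 423 ovary counts and 78, 70 and 39 non-gonadal counts. All 3 of the longest transcripts were called higher in ovary: SMED30011028 (log2 fold change 1.22), SMED30030983 and SMED30007267 (4680 bases, 1.56). Of the 3 shortest, SMED30027311 (367 bases, 1.19) and SMED30034805 (374 bases, 1.10) were called and SMED30029762 was not (0.86, edgeR adjusted p = 0.0589). How often transcripts of such lengths were called among all those tested was not counted.

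The 3 transcripts called lower in ovary were SMED30031236, SMED30026769 and SMED30023179. SMED30031236, with 158, 155 and 164 ovary counts and 283, 262 and 255 non-gonadal counts, had a log2 fold change of -1.31 (SE 0.16, edgeR adjusted p = 9.92e-06). For SMED30026769 the log2 fold change was -1.29 (edgeR adjusted p = 1.17e-04), from 77, 60 and 67 ovary counts and 127, 96 and 115 non-gonadal counts. For SMED30023179 it was -1.17 (edgeR adjusted p = 1.13e-04), from 118, 91 and 107 ovary counts and 156, 180 and 151 non-gonadal counts, and it fell just short of the 2-fold limit when ovary replicate 2 was left out. In all 3 the lowest non-gonadal count was above the highest ovary count.

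Some of the calls lay close to the threshold. SMED30005870 (log2 fold change 1.01, edgeR adjusted p = 0.0052) and SMED30014641 (1.09, edgeR adjusted p = 0.0048) had the smallest differences of the 39, and both lost the call when any of non-gonadal replicates 2 and 3 or ovary replicates 1 and 3 was left out. SMED30014320 (-0.50, edgeR adjusted p = 0.0034) and SMED30023470 (0.77, edgeR adjusted p = 0.0096) passed the limit on p but not the limit on fold change.

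Of the 10 most abundant transcripts, SMED30017110 came nearest to a call at 0.96 (SE 0.32, edgeR adjusted p = 0.0187). SMED30006104 had 0.72 (SE 0.32, edgeR adjusted p = 0.0652). SMED30021452 had -0.21 (SE 0.14, edgeR adjusted p = 0.208), the only negative value of the 10, and 0.21 under library size alone.

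Within the testis, replicate 2 gave the highest level for most of the transcripts. It was highest for 194 of 200 in deposited CPM (48.7% of all tested transcripts) and for 179 in TPM (30.3% of all). In CPM from library totals it was highest for 157 (24.7% of all). After TMM scaling it was highest for 183, for which the share over all tested transcripts was not counted. The median ratio of replicate 2 to the mean of the other 2 was 1.31 in deposited CPM, 1.21 after TMM scaling and 1.12 by library totals, beside 1.06, 0.979 and 0.908 for all tested transcripts. The median ratio of the 200 was above 1 under each scaling, and its size depended on the scaling.

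**Figure D5:**
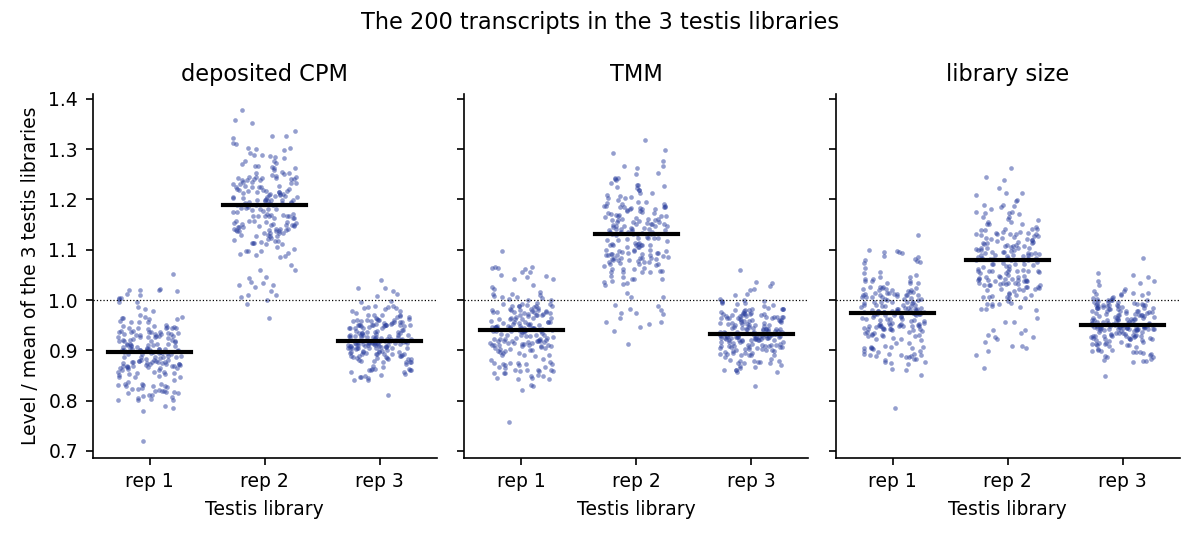
Level of each of the 200 transcripts in each testis library divided by its mean over the 3 (linear axis), under deposited CPM, TMM scaling and library size; points are transcripts, bars are medians and the dotted line is the mean. Replicate 2 lies above the other 2 in each panel, for 194, 183 and 157 transcripts.

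The median CV over the 3 testis libraries was 16.4% in deposited CPM and 7.84% by library totals. For the 86 other transcripts at least as abundant in testis, it was 10.1% and 7.59%. SMED30017429 varied most, with 28307, 46375 and 29740 counts (CV 32.7% in deposited CPM, 22.8% by library totals), followed by SMED30002167 (19201, 31398 and 21143 counts) and SMED30035960 (9876, 16376 and 11361 counts). In all 3 it was replicate 2 that was high. SMED30032862 varied least in deposited CPM, with 10806, 10480 and 11129 counts (CV 1.29%, but 8.62% by library totals), followed by SMED30031222 and SMED30022226. The order of the 200 transcripts was close between libraries, with Spearman's rho of 0.949 to 0.981 over transcripts.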

How the data were processed

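RNA from laser-captured ovary, testis and non-gonadal tissue (3 libraries each) was sequenced from a stranded kit in single-end reads. The authors trimmed the reads and used CLC Genomics Workbench to map them to an assembled transcriptome, to which they had added zfs1. The sources used here do not state the version of the Workbench or how reads matching several transcripts were counted, so transcripts with near-identical copies are uncertain. The authors deposited raw counts per transcript, RPKM and TPM. The authors also deposited a CPM column, a signal that does not sum to the same total in each library because an effective library size was used: relative to library totals, its factor was 1.02 to 1.05 in non-gonadal tissue, 1.35 to 1.38 in ovary and 0.632 to 0.756 in testis. The test plan had taken it for plain CPM. It set the choice of transcripts and the residual levels, and CPM from library totals was tried beside it. The authors' own fold changes and p-values were not used.

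Lengths were taken from counts and RPKM (within 0.5%). Transcripts reaching 1 CPM in 3 or more of the 9 libraries were tested on their counts with edgeR 4.0.16 (R 4.3.3, limma 3.58.1): TMM scaling, quasi-likelihood F-test, tissue only, all libraries in 1 fit, Benjamini-Hochberg adjustment over 18416 transcripts, called at an adjusted p of 0.01 and 2-fold. Log2 fold changes are ovary over non-gonadal unless stated. Alternatives were DESeq2 1.42.0, other scalings and filters, a replicate block and leaving out each library. Transcripts named were the 10 most abundant, the 5 highest in each residual level, the 5 largest and 5 smallest called fold changes, the 3 most and least variable in testis, the 3 longest and shortest, and the 3 on each side of each limit. The 200 transcripts, the lists and the markers were chosen with earlier results of these data known.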

Additional observations from a re-analysis of the deposited data

How the results depend on the processing

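The number of the 200 transcripts called higher in ovary than non-gonadal tissue (39) rose to 122 under library size alone, and was 28 to 112 when each library was left out. The number called lower (3) was 0 under library size alone and 2 to 3 with each library left out. Over all tested transcripts, 3364 were called higher and 3466 lower. Library size alone gave 5311 and 2390, and leaving out each library gave 3227 to 3505 higher and 3330 to 3550 lower. Other settings moved the 39 to between 26 (a test against 1.5-fold) and 46 (DESeq2's Wald test, or an adjusted p of 0.05), and leaving the 200 out of the TMM scaling, chosen after seeing the data, gave 39. The mean share of testis counts, 26.1%, became 31.1% of TPM. The median residual level in ovary (0.383%) became 0.799% in TPM and 0.757% in CPM from library totals, and was 0.344% to 0.450% with each library left out. The non-gonadal median (0.221%) became 0.330% by library totals, and was 0.165% to 0.255% with each library left out. Under library size alone the log2 fold changes of SMED30004736 and SMED30021452 turned to 0.14 and 0.21. Of the other comparisons of named transcripts with an alternative, 437 kept direction and call, 19 lost the call and 17 gained it. The cause was not tested, apart from the scaling itself.

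Samples of different tissues share replicate numbers. Correlations of same-numbered libraries' deviations from their tissue means were 0.015 to 0.225 over all tested transcripts and -0.115 to 0.394 over the 200. For ovary and non-gonadal tissue they were 0.022 to 0.225 and -0.024 to 0.394, not all over 0.1, so the numbers were not taken as pairs. For ovary and testis they were 0.250 to 0.325 over the 200, and 0.017 to 0.123 over all. A replicate block called 36 of the 200 higher and 3 lower, and not every library correlated best with its own number.

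Outside the testis the median was 41 to 76 counts per transcript in a non-gonadal library and 112.5 to 164 in an ovary library. Each library pooled several worms, so the spread between single worms was not measured.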
